A study of Homo sapiens with 4 samples.

Results

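The genes described here are 10 genes of REST-mediated repression and of the neuronal program that it holds down, out of 27629 genes with a row in at least one of the 4 libraries. They were chosen by symbol: REST, its corepressors RCOR1 and KDM1A, the phosphatases CTDSP1, CTDSP2 and CTDSPL, and the neuronal genes DLG4, UNC13A, STMN2 and TUBB3. UNC13A was taken partly because it was known to be lower after hnRNPK knockdown in these libraries, so that value is given as a description. Rows in all 4 libraries were found for 9 of the 10 genes. STMN2, which encodes the neuronal microtubule regulator stathmin-2, had no row and was not analysed here.

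RNA-seq was carried out on total RNA of UM-UC-3, a human cell line long established from a bladder cancer, with siRNA at 75 nM and a transfection time of 48 h. The 4 libraries came from cells given control siRNA, si-lncRNA-LBCS, si-hnRNPK or si-PTBP1, and each knockdown used 2 siRNAs against its target. There was 1 library per condition, so no difference has a replicate check and no p-value is given. The same control library serves the 3 comparisons.

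REST is a zinc-finger repressor that binds the RE1 element of neuronal genes in cells that are not neurons, and it recruits the scaffold CoREST (RCOR1) with the histone demethylase LSD1 (KDM1A). The small phosphatases CTDSP1, CTDSP2 and CTDSPL act with REST, partly by removing phosphates from REST and from RNA polymerase II, and their genes host the miR-26 microRNAs. PTBP1 is a splicing repressor that keeps neuronal exons out of mRNAs, among them an exon of its neuronal paralog PTBP2 and one of DLG4, and its loss favours the neuronal forms.

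The sequences that bear on these genes are RE1-like letters in the UNC13A promoter and the matches to the siRNAs in the 3' UTRs of UNC13A and RCOR1, the genes that fell. RE1 is commonly described as a left part and a right part, here searched as TTCAGCACC and GGACAGCGC. Both were searched on both strands, without a mismatch, from 250 bases before to 50 bases after the start of each gene in RefSeq (GRCh38.p14). UNC13A lies on the minus strand of chromosome 19, and both parts were found at chr19:17688340-17688365, from 11 bases before to 15 bases after its start. The capitals mark the parts, which lie 8 bases apart, and each strand is written 5′ to 3′.
UNC13A promoter, gene strand: GCGCTGTCCgcgcccccGGTGCTGAA
UNC13A promoter, opposite strand: TTCAGCACCgggggcgcGGACAGCGC
The left part was in 0.469% and the right part in 0.718% of 27305 genes with promoter entries. Both on one strand of the same window, in any order and at any distance, were in 6 genes (0.022%). Of the 8 REST complex and neuronal genes searched, UNC13A alone held either part. CTDSPL had no entry and STMN2 was not searched. The usual arrangement of RE1, searched as CAGCACC and GGACAG with 2 bases between them, was in 0.0586% of genes and in 0 of these 8. A match of letters is a description and not a bound site.

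The siRNAs are shown because an siRNA can lower other mRNAs through guide bases 2 to 8, its seed. The capitals in each siRNA mark the 7 bases that pair with the seed of the strand that binds the target.
si-hnRNPK siRNA 1: ggguuguagagUGCAUAAatt
si-hnRNPK siRNA 2: gccuccaucuaGAAGAGAutt
si-lncRNA-LBCS siRNA 1: gcugcucauuuGUCUGAUctt
si-lncRNA-LBCS siRNA 2: ggugguagucaACACAAAutt
si-PTBP1 siRNA 1: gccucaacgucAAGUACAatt
si-PTBP1 siRNA 2: cccucauugacCUGCACAatt
The longest annotated 3' UTR of 11920 genes (GENCODE release 29, GRCh38) was searched for these 7 letters on the transcript strand. Stretches around siRNA sites are printed only for genes that fell in the library of that siRNA. Sites were also in genes that did not fall there. They were in RCOR1 for si-lncRNA-LBCS siRNA 2 and in DLG4 for si-hnRNPK siRNA 2. For si-PTBP1 they were in REST and RCOR1 (siRNA 1) and in RCOR1, CTDSP2 and UNC13A (siRNA 2). The site of si-hnRNPK siRNA 1 was in 1309 genes, and among the 10 genes it was in RCOR1 and UNC13A, once each. These were also the genes with the longest 3' UTRs of the 10, at 4070 bases for RCOR1 and 4726 for UNC13A. The others ranged from 325 bases (KDM1A) to 3692 bases (REST), and site counts were not adjusted for length. The site lies at chr14:102728438-102728466 in RCOR1 (plus strand) and at chr19:17602158-17602186 in UNC13A (minus strand), with its letters in capitals.
RCOR1 3' UTR, si-hnRNPK siRNA 1: agtttgcacatTGCATAAagggtacacta
UNC13A 3' UTR, si-hnRNPK siRNA 1: ctcgaatgattTGCATAAaatgaggaggt
The site of si-lncRNA-LBCS siRNA 2 was in 18.2% of genes, with 3 copies in RCOR1 and 2 in UNC13A. Those in UNC13A lie at chr19:17604843-17604871 and chr19:17601439-17601467.
UNC13A 3' UTR, si-lncRNA-LBCS siRNA 2, site 1: gagagagagaaACACAAAcacagtgacac
UNC13A 3' UTR, si-lncRNA-LBCS siRNA 2, site 2: acaaatgtttaACACAAAcgagaagtggt

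Expression is given as CPM, the reads of a gene scaled to a common library total. The libraries held between 54301152 and 70232674 reads on listed genes, and 3 reads correspond to between 0.0427 and 0.0552 CPM. Changes are differences in log2(CPM + 1) between a knockdown library and the control library, for genes that reached 1 CPM in either library. A gene is said to rise or fall where its difference was at least 1 in size. Intervals are 95% exact Clopper-Pearson intervals on the reads of 2 libraries and cover counting error only. HNRNPK was at 783.1 CPM in control and 187.8 CPM in si-hnRNPK, and PTBP1 was at 280.0 CPM in control and 89.7 CPM in si-PTBP1. The labels give RT-qPCR levels of 0.08 and 0.1 relative to control for these libraries, so the reads leave more of both RNAs than the labels do. The long noncoding RNA matched by both siRNAs of the si-lncRNA-LBCS-labelled library was at 1.79 CPM in control and 1.47 CPM in that library, or 81.8% of control (interval 61.9 to 108%), so counting error alone does not separate the libraries. The labels give its RT-qPCR level there as 0.13 relative to control, and the reads go against that. It was at 3.43 CPM in si-hnRNPK and 3.82 CPM in si-PTBP1. Median-of-ratios scaling over 12362 genes put the whole si-hnRNPK library -0.11 and the si-PTBP1 library 0.13 from control on the log2 scale, so smaller differences than these depend on the scaling.

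UM-UC-3 cells carried few defining markers of urothelium or of neurons, here in CPM that are not per length. Of 15 urothelial and epithelial markers, 4 were at 1 CPM or more in control, led by the keratins KRT18 (121.4 CPM), KRT8 (63.0 CPM) and KRT7 (2.85 CPM). The uroplakins UPK1A, UPK1B and UPK2 and the urothelial factor GATA3 were between 0.00 and 0.32 CPM in every library, and UPK3A and CDH1 (E-cadherin) had no row. TP63, a factor of basal epithelium, rose in si-hnRNPK and si-PTBP1, from 0.34 to 2.50 and 2.37 CPM. It was tested only because it was high in those libraries, and neither rise was called with a filter of 5 CPM or with the other knockdown libraries as the reference (differences of 0.63 and 0.55). For each rise that reference includes the other library in which TP63 was high, which lowers the difference. The mesenchymal markers VIM (vimentin), ZEB1 and FN1 (fibronectin) led their list of 5, at 2343, 124.4 and 57.2 CPM in control, and FN1 rose to 188.7 CPM in si-hnRNPK and 211.1 CPM in si-PTBP1. Against the other knockdown libraries, the differences of FN1 were 0.55 and 0.79 and no longer reached the threshold. Here too the reference includes the other library in which the gene was high. Over all genes 3.55% rose in si-hnRNPK and 2.92% in si-PTBP1. Of 7 glia and blood markers MBP alone reached 1 CPM in any library, and GFAP was at 0.07 CPM in control. Of 22 neuron identity genes, 4 were at 1 CPM or more in control and 7 had no row, among them DCX, SOX2, NEUROD1 and SYN1. The 3 highest were UCHL1 (96.7 CPM), ENO2 (58.2 CPM) and MAPT (4.77 CPM), which encodes tau. RBFOX3, the mature neuron marker NeuN, had no row in control or si-hnRNPK and reached 0.12 CPM in si-PTBP1.

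Of the 9 genes with rows, UNC13A fell in the si-lncRNA-LBCS-labelled library, RCOR1 and UNC13A fell in si-hnRNPK, and none rose or fell in si-PTBP1. All 9 were at 1 CPM or more in each comparison. Over all genes, falls of this size made up 1.01% of 13492 genes in the si-lncRNA-LBCS-labelled library, 3.93% of 13672 in si-hnRNPK and 0.613% of 13855 in si-PTBP1. Rises made up 0.378%, 3.55% and 2.92%, in the same order. The median difference of the 9 genes was -0.07, -0.35 and 0.00, against -0.01, -0.11 and 0.12 over all genes tested. REST itself and its partner KDM1A stayed within 0.35 of control in all libraries on the log2 scale.

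**Figure D1:**
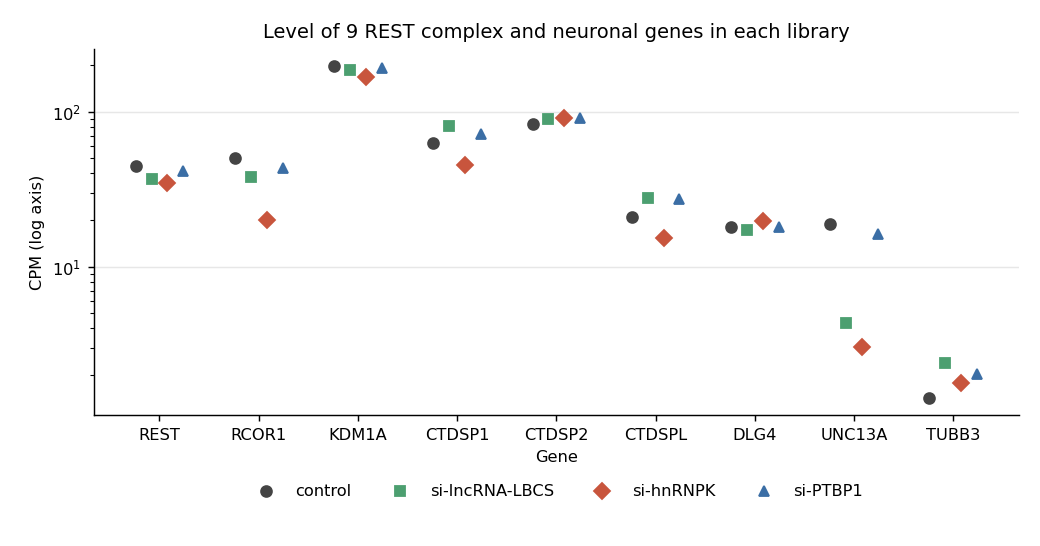
CPM of the 9 genes with rows (vertical log axis) in the control library and the si-lncRNA-LBCS, si-PTBP1 and si-hnRNPK libraries, 1 point per library. UNC13A falls from 18.8 CPM in control to 4.34 and 3.02 CPM in the si-lncRNA-LBCS and si-hnRNPK libraries and is at 16.3 CPM in si-PTBP1, and RCOR1 is lowest in si-hnRNPK at 20.1 CPM.

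Per kilobase of annotated exon, the scale on which genes can be compared with each other, KDM1A was the highest of the 9 genes in control at 36.3 CPM per kb. CTDSP2 (15.2), CTDSP1 (13.3), RCOR1 (8.04), REST (5.57) and CTDSPL (3.61) followed, in CPM per kb. The neuronal genes came last, with DLG4 at 1.74, UNC13A at 1.68 and TUBB3 at 0.32 CPM per kb. DLG4 and UNC13A were thus close neighbours in control. In si-hnRNPK UNC13A, at 0.27 CPM per kb, was below TUBB3 at 0.40 CPM per kb, and in the si-lncRNA-LBCS-labelled library it was also below TUBB3, at 0.39 against 0.54 CPM per kb. In si-hnRNPK RCOR1 (3.25 CPM per kb) was below REST (4.35 CPM per kb), the reverse of their order in the other 3 libraries. The lengths count every annotated exon, so a gene with long rare exons appears lower than its mRNA is.

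REST (ENSG00000084093, chr4:56907876-56966678, plus strand) was at 44.4 CPM in control, 36.6 CPM in the si-lncRNA-LBCS-labelled library, 34.7 CPM in si-hnRNPK and 41.1 CPM in si-PTBP1. Its differences from control were -0.27 (interval -0.35 to -0.20), -0.35 (-0.43 to -0.27) and -0.11 (-0.19 to -0.03). Control was the highest library, but the highest level was 1.28 times the lowest, and none of the differences reached the threshold. These are reads of the whole gene, so a shift between REST and its truncated neuronal isoform, made by including a short exon, would not be seen. SRRM3, a splicing factor that can act on that exon, was at 7.61, 7.33, 7.64 and 14.9 CPM in the same order, and its relative SRRM4 had no row. SRRM3 was chosen after its values were seen.

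RCOR1 (ENSG00000089902, chr14:102592661-102730576, plus strand), the scaffold that joins KDM1A to REST, was the component of the complex that fell. It was at 49.9 CPM in control, 37.9 CPM in the si-lncRNA-LBCS-labelled library, 20.1 CPM in si-hnRNPK and 43.4 CPM in si-PTBP1. The si-hnRNPK library stood below the other 3, at 40.4% of control (interval 37.6 to 43.3%), a difference of -1.27 (-1.36 to -1.17). It was also 0.532 times the level of the si-lncRNA-LBCS-labelled library and 0.463 times that of si-PTBP1. The other differences from control were -0.39 and -0.20. The RCOR1 3' UTR holds the site of si-hnRNPK siRNA 1 shown above, and it also holds 3 sites of si-lncRNA-LBCS siRNA 2 and 1 site of each si-PTBP1 siRNA. In si-hnRNPK the median difference of genes with a site of siRNA 1 was -0.25, and that of genes without one was -0.08. The part of these sites in the fall of RCOR1 was not tested. Its paralogs RCOR2 and RCOR3, which can take its place in related complexes, are described with the paralogs.

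KDM1A (ENSG00000004487, chr1:23019443-23083689, plus strand), which removes methyl groups from lysine 4 of histone H3, was the most abundant of the 9 genes. It was at 197.2 CPM in control, 184.7 CPM in the si-lncRNA-LBCS-labelled library, 166.2 CPM in si-hnRNPK and 190.6 CPM in si-PTBP1. Its differences from control were -0.09, -0.25 and -0.05, and the highest library was 1.19 times the lowest. With at least 9026 reads per library the counting intervals were narrow, for si-hnRNPK 82.0 to 86.6% of control.

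The phosphatase genes CTDSP1 and CTDSPL were lowest in si-hnRNPK, followed by control, and CTDSP2 was not. CTDSP1 (ENSG00000144579, chr2:218398256-218405941, plus strand) was at 62.9 CPM in control, 80.3 CPM in the si-lncRNA-LBCS-labelled library, 45.5 CPM in si-hnRNPK and 71.5 CPM in si-PTBP1. CTDSPL (ENSG00000144677, chr3:37861960-37984469, plus strand) was at 20.9, 27.5, 15.3 and 27.3 CPM in the same order. For both genes si-hnRNPK was the lowest library, at 72.4% of control (interval 68.8 to 76.2%) for CTDSP1 and 73.1% (66.9 to 79.8%) for CTDSPL. In the si-lncRNA-LBCS-labelled library they were at 128% (122 to 133%) and 132% (123 to 141%) of control. The level of CTDSPL there was 1.01 times that in si-PTBP1 (0.942 to 1.08), and this interval includes no difference. CTDSP2 (ENSG00000175215, chr12:57819927-57846739, minus strand) was at 82.8 CPM in control and between 89.1 and 90.3 CPM in the knockdown libraries. None of these differences reached the threshold. CTDSP1 shares 468 exon bases with an antisense gene that had no row, and whether the reads were counted by strand is not given in the sources used here.

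Each of these phosphatase genes holds a miR-26 gene in an intron on its own strand: MIR26B in CTDSP1, MIR26A2 in CTDSP2 and MIR26A1 in CTDSPL. The mature microRNAs (RefSeq) are shown because they share a seed, in capitals, that matches 3' UTRs of REST and RCOR1.
hsa-miR-26a-5p: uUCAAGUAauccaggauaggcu
hsa-miR-26b-5p: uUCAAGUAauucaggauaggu
They are identical at 19 of 21 positions counted from the 5′ end. The site of this seed was in the longest 3' UTR of 14.1% of genes, and among the 10 genes it was in REST, RCOR1 and DLG4. In REST and RCOR1 it lies at chr4:56932533-56932561 and chr14:102729306-102729334, with the site in capitals.
REST 3' UTR, miR-26: taatagcaaatTACTTGAagaatttgcct
RCOR1 3' UTR, miR-26: aaacaccttgtTACTTGAatattgtgttg
These libraries give no level of the mature microRNAs. The hairpin genes MIR26A2 and MIR26B had at most 9 reads in any library, and MIR26A1 had no row.

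UNC13A (ENSG00000130477, chr19:17601328-17688365, minus strand) encodes Munc13-1, which primes synaptic vesicles for release. It was at 18.8 CPM in control (1156 reads), 4.34 CPM in the si-lncRNA-LBCS-labelled library (305 reads), 3.02 CPM in si-hnRNPK (164 reads) and 16.3 CPM in si-PTBP1 (912 reads). Control and si-PTBP1 were the high libraries and the other two the low ones, with a gap between them that the counting intervals did not bridge. In si-hnRNPK it was at 16.03% of control (interval 13.5 to 18.9%), a difference of -2.30 (-2.48 to -2.12), which is the value known when it was chosen. In the si-lncRNA-LBCS-labelled library it was at 23.1% of control (20.3 to 26.2%), a difference of -1.89 (-2.04 to -1.74). In si-PTBP1 it was at 86.4% of control (79.1 to 94.3%), a difference of -0.20. The si-hnRNPK level was 0.695 times that of the si-lncRNA-LBCS-labelled library (0.572 to 0.844). Against the mean of the other knockdown libraries, with control left out, the difference was -0.64 in the si-lncRNA-LBCS-labelled library, -1.26 in si-hnRNPK and 1.90 in si-PTBP1. Each such mean includes a library in which UNC13A was low, so these differences do not check the falls against control. Against si-PTBP1 alone, the level in the si-lncRNA-LBCS-labelled library was 0.267 times as high (0.234 to 0.304). Against the mean of the other knockdown libraries RCOR1 was at -0.98 in si-hnRNPK.

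Other measured values stand beside the low levels of UNC13A. Its 3' UTR holds the sites of si-hnRNPK siRNA 1 and si-lncRNA-LBCS siRNA 2 shown above, and also a site of si-PTBP1 siRNA 2, in whose library it did not fall. In the si-lncRNA-LBCS-labelled library the median difference was -0.05 for genes with a site of siRNA 2 and -0.00 for those without. With 11.2 kb of exon UNC13A was among the longest 10% of genes with an annotated 3' UTR, of which 6.15% fell in si-hnRNPK and 1.38% in the si-lncRNA-LBCS-labelled library, with median differences of -0.24 and -0.08. TARDBP encodes TDP-43, whose loss is known to bring a cryptic exon into UNC13A mRNA and into STMN2 mRNA. It was at 51.7 CPM in control, 34.3 CPM in the si-lncRNA-LBCS-labelled library, 35.8 CPM in si-hnRNPK and 52.6 CPM in si-PTBP1, and it was chosen after its values were seen. The part of these in the level of UNC13A was not tested, and exons cannot be told apart in values of whole genes.

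**Figure D2:**
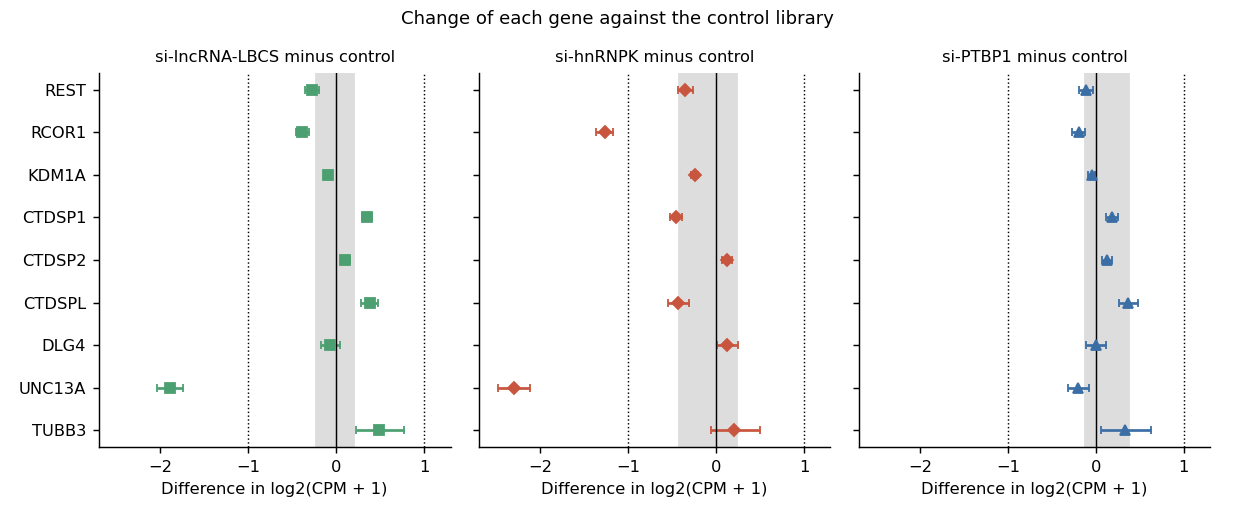
Difference in log2(CPM + 1) from control (horizontal axis) of the 9 genes in each knockdown library, with 95% counting intervals as bars, dotted lines at -1 and 1, and grey bands for the interquartile range of all genes tested. UNC13A lies at -1.89 and -2.30 in the si-lncRNA-LBCS and si-hnRNPK libraries and RCOR1 at -1.27 in si-hnRNPK, and the other values lie between the dotted lines.

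DLG4 (ENSG00000132535, chr17:7187169-7219841, minus strand) encodes PSD-95, the scaffold of excitatory synapses. It was at 17.99 CPM in control, 17.1 CPM in the si-lncRNA-LBCS-labelled library, 19.8 CPM in si-hnRNPK and 17.98 CPM in si-PTBP1. In CPM, control and si-PTBP1 were at one level, with si-PTBP1 at 100.0% of control (interval 91.7 to 109%). With median-of-ratios scaling the log2 difference there was -0.12, so the equality depends on the scaling. PTBP1 acts on a DLG4 exon whose loss leads to decay of the mRNA in cells that are not neurons. Values of whole genes do not show that exon, and its part in these levels was not tested. DLG4 shares 85 exon bases with ACADVL on the other strand, a gene at 239.5 to 346.2 CPM, so a part of its reads may belong there.

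TUBB3 (ENSG00000258947, chr16:89921392-89938761, plus strand) encodes the neuronal beta-tubulin. It was at 1.42 CPM in control (87 reads), 2.38 CPM in the si-lncRNA-LBCS-labelled library (167 reads), 1.79 CPM in si-hnRNPK (97 reads) and 2.03 CPM in si-PTBP1 (114 reads). Control was the lowest library, and the level in the si-lncRNA-LBCS-labelled library was 168% of control (interval 129 to 220%), a difference of 0.48. The interval for si-hnRNPK, 93.4 to 170% of control, includes no difference. TUBB3 shares 1584 bases, 35.8% of its exons, with another gene on the same strand (ENSG00000198211, at 1.33 to 1.71 CPM), so its reads are uncertain.

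The wider corepressor machinery was read from 21 genes, all with rows. None rose or fell in the si-lncRNA-LBCS-labelled library or in si-PTBP1, and GSE1, a CoREST complex subunit, was the 1 of 21 that fell in si-hnRNPK, where 3.93% of all genes fell. GSE1 was at 21.03 CPM in control, 15.9 CPM in the si-lncRNA-LBCS-labelled library, 9.35 CPM in si-hnRNPK and 30.6 CPM in si-PTBP1, so it shared with RCOR1 the lowest level in si-hnRNPK. Its difference there was -1.09, or -0.99 with median-of-ratios scaling. Median differences were -0.17, -0.22 and 0.37, against -0.01, -0.11 and 0.12 over all genes. In si-PTBP1 18 of the 21 genes were above 0, against 63.5% of all genes. The 3 highest genes in control, the corepressor CTBP1 (123.6 CPM) and the deacetylases HDAC1 (116.0 CPM) and HDAC2 (114.6 CPM), differed from control by between -0.22 and 0.39.

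Genes that turn REST over, listed together with splicing regulators that need not act on REST itself, were 15, of which 14 had rows. PTBP2 was the gene that passed the threshold, 1 of 14 tested. Over all genes 2.92% rose in si-PTBP1 and 3.93% fell in si-hnRNPK. PTBP2 rose from 141.2 CPM in control to 443.0 CPM in si-PTBP1, or 314% of control (interval 306 to 322%), a difference of 1.64. It fell to 68.2 CPM in si-hnRNPK, a difference of -1.04, or -0.93 with median-of-ratios scaling, and was at 77.5 CPM in the si-lncRNA-LBCS-labelled library. The highest of the list in control were CSNK1A1, a kinase (349.0 CPM), SKP1, a subunit of the ubiquitin ligase that marks REST for decay (163.7 CPM), and PTBP3, a paralog of PTBP1 (160.3 CPM). CSNK1A1 and SKP1 differed from control by between -0.10 and 0.34, and PTBP3 by -0.11, -0.64 and 0.21 in the si-lncRNA-LBCS-labelled library, si-hnRNPK and si-PTBP1. Of 12 genes listed for exons under the control of PTBP1, not all of them neuronal exons, PTBP2 is one, and 9 were tested in each comparison. TPM1, a tropomyosin, rose in si-hnRNPK from 334.8 to 843.4 CPM, a difference of 1.33, where 3.55% of all genes rose. Against the other knockdown libraries the difference was 0.79, and 0.97 with control added to them, so the rise depends on the reference. The other genes that led this list were the actin-binding FLNA (3491 CPM in control) and ACTN1 (264.4 CPM), with differences between -0.36 and 0.53.

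Neuronal and neuroendocrine genes that REST is known to repress were 43, of which 35 had rows and 13 to 16 were tested in a comparison. In si-PTBP1 CHGB, a protein of secretory granules, rose from 1.66 to 5.85 CPM, a difference of 1.36, or 0.95 against the other knockdown libraries. It was 1 of 16 tested, and 2.92% of all genes rose there. The median difference there was 0.48 against 0.12 over all genes, and 15 of 16 were above 0 against 63.5% of all genes. A gene that is low in control enters only if it is higher in the knockdown library, and 3 of the 16 entered so. Over the 13 at 1 CPM or more in control, a restriction added after seeing the data, the median was 0.45 against 0.10 over all genes so restricted, and 12 were above 0 against 61.6%. In si-hnRNPK, where 3.93% of all genes fell, 3 of 13 did: the cadherin CELSR2 from 1.84 to 0.41 CPM, the stathmin STMN3 from 29.2 to 12.9 CPM and the neurosecretory VGF from 113.7 to 53.9 CPM. Their differences were -1.02, -1.12 and -1.06, and with median-of-ratios scaling those of CELSR2 (-0.98) and VGF (-0.95) no longer reached the threshold. CELSR2 was not tested with a filter of 5 CPM, and VGF was at -0.84 against the other knockdown libraries. In the same library MAPK8IP1 and CELSR3, which with VGF were the highest of the list in control, were at 82.9 and 46.5 CPM, against 51.7 and 32.1 CPM in control, so the targets did not share a direction. None rose or fell in the si-lncRNA-LBCS-labelled library. Both RE1 parts, in any order and at any distance, were in the promoters of CELSR3, GRIA2 and SCG3 among the 30 target genes with entries. In CELSR3 the right part starts at -237 and the left part at -148 bases from the gene start, the reverse of the RE1 order. In SCG3 the left part starts at 8 and the right part at 25 bases from the gene start, in the RE1 order as in UNC13A. The usual arrangement with 2 bases between the parts was in GRIA2 and in SYN1, which had no row. CELSR3 was at 32.1, 39.0, 46.5 and 52.1 CPM in the order of libraries used above, and GRIA2 and SCG3 were at or under 0.42 CPM.

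**Figure D3:**
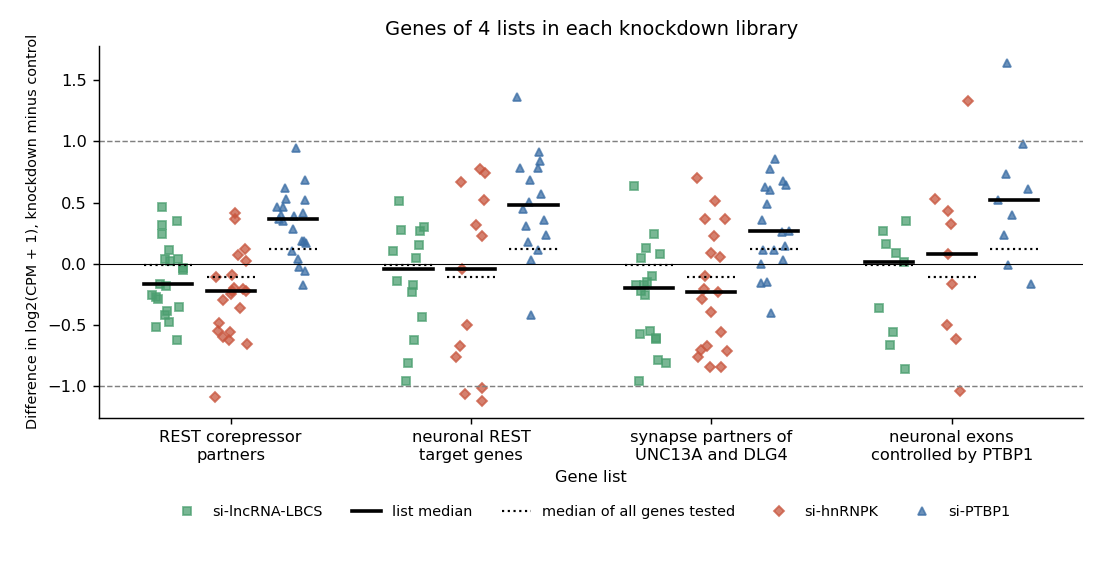
Difference in log2(CPM + 1) from control (vertical axis) of each tested gene of 4 lists, by knockdown library, with list medians as solid bars, medians of all genes tested as dotted bars and dashed lines at -1 and 1. In si-PTBP1 the medians are 0.37 for corepressor partners and 0.48 for the 16 REST target genes tested (0.45 for the 13 at 1 CPM or more in control), and GSE1 lies at -1.09 in si-hnRNPK.

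The synapse partners of UNC13A and DLG4 were 29 genes, of which 28 had rows and 18 or 19 were tested, and none rose or fell in any library. With a threshold of 1.5-fold, 5 fell and 1 rose in the si-lncRNA-LBCS-labelled library, 6 fell and 1 rose in si-hnRNPK, and 6 rose and 0 fell in si-PTBP1. Over all genes, falls of this smaller size made up 5.74%, 15.8% and 3.12% and rises 4.14%, 9.89% and 12.1%, in the same order. At the threshold of 1, 1 gene fell in the si-lncRNA-LBCS-labelled library with a pseudocount of 0.1, and 2 rose in si-PTBP1 against the other knockdown libraries. Median differences were -0.20, -0.23 and 0.27 in the order used above. The highest in control were STX1A, a syntaxin (55.1 CPM), HOMER3, a postsynaptic scaffold (52.3 CPM), and ADGRB1, an adhesion receptor (40.1 CPM). STX1A was at 67.7% of control (interval 64.3 to 71.2%) in the si-lncRNA-LBCS-labelled library, 55.1% (51.9 to 58.4%) in si-hnRNPK and 89.6% in si-PTBP1. HOMER3 was at 47.1, 44.4 and 56.7 CPM in the knockdown libraries, and ADGRB1 at 35.5, 32.6 and 61.4 CPM. STX1A was thus lowest in si-hnRNPK and below control in each knockdown library, and HOMER3 and ADGRB1 were highest in si-PTBP1.

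Paralogs of the 10 genes were 21, of which 19 had rows. STMN3, named above, was the one past the threshold, as 1 of 17 tested in si-hnRNPK, where 3.93% of all genes fell. UNC13B, the broadly expressed relative of UNC13A, was at 50.6 CPM in control and 81.4, 72.2 and 80.9 CPM in the knockdown libraries (si-lncRNA-LBCS-labelled, si-hnRNPK and si-PTBP1), so it was not low where UNC13A was. RCOR2 was at 1.60, 0.87, 0.72 and 3.995 CPM and RCOR3 at 13.4, 12.9, 8.82 and 21.1 CPM in the order that starts with control, with the highest level of both in si-PTBP1. UNC13B, RCOR2 and RCOR3 were chosen after their values were seen. Among tubulins and stathmins, TUBB (1834 CPM), TUBB6 (479.5 CPM) and STMN1 (386.7 CPM) had the highest CPM in control. In si-PTBP1 they were at 1374, 244.9 and 201.4 CPM. There TUBB6 (-0.97) and STMN1 (-0.94) lay just under the threshold, and both fell with median-of-ratios scaling (-1.09 and -1.06). Tubulin genes are close in sequence, and reads that match several of them cannot be assigned here.

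Patterns over the 4 libraries were compared by the Euclidean distance between centred log2(CPM + 1) values, over 9609 or 9610 genes at 10 CPM or more. Nearest to UNC13A were ATN1 (distance 0.50), MDC1 (0.58) and SETD1B (0.59). ATN1 was at 29.7 CPM in control, 9.95 CPM in the si-lncRNA-LBCS-labelled library, 9.06 CPM in si-hnRNPK and 31.7 CPM in si-PTBP1. TARS2, ZNF189 and CLK1 were nearest to DLG4 and METTL8, EI24 and DERA to TUBB3, all at distances of at most 0.03. With 4 libraries, of which 1 is a common control, such distances describe these libraries only.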

How the data were processed

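UM-UC-3 RNA was sequenced as 100-base paired-end reads, in 4 libraries with 1 per condition. The authors deposited 1 table of CPM per library with Ensembl identifiers. The submitters' processing notes name hg19. The aligner, counting method, strand setting and filters are not given in the sources used here. Between 197 and 393 genes per library were listed below 1 read (0.0046 of a read in control and 0.5 in each knockdown library) and were set to 0. For the other genes CPM values were whole multiples of 1 read (within 0.01 of a read) in 100% of cases, which gave reads. Symbols matched 22024 of 27629 identifiers. Exon lengths, positions and 3' UTRs are from GENCODE release 29 (GRCh38), matched by identifier.

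The members and 11 other gene lists were chosen with earlier results of these data known. Named genes are the members, the targets, each list's genes past the threshold and its 3 highest in control, the 3 nearest patterns, and others marked as chosen after their values were seen. The pseudocount was 1, the filter 1 CPM in either library and the threshold 1 on the log2 scale, which understates changes of low genes. In RNA of whole cultures, fewer expressing cells and less RNA per cell cannot be told apart. Of 12 miR-124 and miR-9 host genes, 1 had a row and 0 were tested. Some list genes are not reported here. Of the 8 alternatives, the closing section gives the changed counts of members and a summary for the lists. Scripts were tested on simulated data. Tables were handled with pandas 2.3.3 and numpy 2.4.6 in Python 3.11.15, intervals and adjustment used scipy 1.17.1 with statsmodels 0.14.6, and figures used matplotlib 3.10.9.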

Additional observations from a re-analysis of the deposited data

How the results depend on the processing

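The counts of members that rose or fell were the same with median-of-ratios scaling, a 0.1 pseudocount or a 1.5-fold threshold. They were also the same with the filter off or at 5 CPM, which could not change them. All members with rows passed the filter of 1 CPM, and TUBB3, the one under 5 CPM in all libraries, was not called. An added binomial q of at most 0.05 on the reads removed no call of any gene, so it is no separate check. Over all 8 alternatives, with those settings included, 44 of 48 counts kept their value. The others changed with the reference. With the other knockdown libraries as the reference (their geometric mean, control left out) 0 members fell in the si-lncRNA-LBCS-labelled library (UNC13A -0.64), 1 fell in si-hnRNPK (UNC13A -1.26, with RCOR1 at -0.98), and 1 rose in si-PTBP1 (UNC13A 1.90). With control added to that mean, 1 also rose in si-PTBP1 (UNC13A 1.198). These references include libraries in which UNC13A was low, so they do not check its falls against control. Of 27 differences of members, 17 kept their sign under 4 alternatives and 10 did not. Some of these alternatives take the other knockdown libraries, with or without control, as the reference and so are not differences from control. The differences of REST, RCOR1, KDM1A, CTDSP2, UNC13A and TUBB3 in si-PTBP1, of RCOR1, KDM1A and CTDSP2 in the si-lncRNA-LBCS-labelled library and of TUBB3 in si-hnRNPK changed sign. With control as the reference, only that of CTDSP2 in si-PTBP1 did, to -0.0029 with median-of-ratios scaling.

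At a threshold of 1 the number of REST target genes that fell in si-hnRNPK ranged from 1 to 3 over the alternatives and that of corepressor partners from 0 to 2. Of the list genes called at that threshold, counted once per comparison, 10 calls were lost and 20 gained under at least 1 of 7 alternatives. Lost with the reference were the rises of FN1, TP63 and TPM1 in si-hnRNPK, of FN1, TP63 and CHGB in si-PTBP1 and the fall of VGF. For FN1 and TP63 the reference included the other library in which they rose. Under median-of-ratios scaling VGF (-0.95), CELSR2 (-0.98), GSE1 (-0.99) and PTBP2 (-0.93) no longer passed in si-hnRNPK, and TUBB6 (-1.09) and STMN1 (-1.06) fell in si-PTBP1. With the filter off, 0 calls changed, and none could, because a gene under 1 CPM in both libraries cannot reach the threshold with a pseudocount of 1. REST target genes that rose in si-PTBP1 ranged from 1 to 3. An exact binomial test, which compares 2 libraries and not the conditions, gave a q of at most 0.05 for 68.1% to 77.9% of genes. No paired analysis was possible because there was 1 library per condition. The low depth of TUBB3 (87 to 167 reads) limits its intervals.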

Other observations

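The knockdown libraries can also be compared with each other, without the control library. RCOR1 in si-hnRNPK was 0.463 times its level in si-PTBP1 (interval 0.431 to 0.498), and CTDSP1 and CTDSPL were 0.637 and 0.560 times theirs. UNC13A was 0.186 times its si-PTBP1 level in si-hnRNPK and 0.267 times in the si-lncRNA-LBCS-labelled library. CTDSP2 did not separate the knockdown libraries, with ratios of 1.00 (0.963 to 1.04) for si-hnRNPK over si-PTBP1 and 1.01 (0.976 to 1.05) for si-hnRNPK over the si-lncRNA-LBCS-labelled library.

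Neuron identity genes were tested for 4 to 6 of 22 genes in a comparison, and 0 rose or fell. In si-PTBP1 4 of 6 were above 0 and 2 below, and the summed level of the list was 145.2 CPM against 163.6 CPM in control. The leading genes UCHL1 and ENO2 were at 85.1 and 45.9 CPM there, below control, and MAPT was at 7.29 CPM, above it. Of the 6 genes 2 were tested only because they were higher in si-PTBP1, and over the 4 at 1 CPM or more in control 2 were above 0. GABBR1, a receptor gene with an exon under the control of PTBP1, was at 10.4 CPM in control and 21.4 CPM in si-PTBP1, a difference of 0.98 that lies just under the threshold. It was chosen after its values were seen, and it passed with a pseudocount of 0.1 (1.04) and against the other knockdown libraries (1.51).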
